A study of Homo sapiens with 8 samples.

Results

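The 34 genes described here encode the keratin filaments, adherens junctions, tight junctions and desmosomes of epithelial cells, together with regulators and surface proteins of the same cells. They were named as a list, and each was read through the probe set that carried exactly 1 gene symbol and had the highest mean over the arrays. That left 31 of the 34 among 18417 genes measured this way. CTNND1 and OCLN shared their probe sets with another symbol, and ESRP1 was not analysed here.

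The cells were T47D, a long-established breast cancer line of luminal type that carries estrogen receptor, grown as bulk cultures in medium stripped of steroids for 2 days before transfection. All groups received 200 nM siRNA by lipid transfection, either a scrambled control or 3 mixed siRNAs to 17β-HSD1 (gene HSD17B1), which makes estradiol from estrone. After 48 h the medium was replaced with one holding ethanol vehicle or 1 nM estradiol (E2), and RNA was taken 2 days later. Both siRNAs were combined with both media, which gave 4 groups of 2 Affymetrix Human Gene 1.0 ST arrays. The arrays of a group carry the numbers 1 and 2 and came from separate culture experiments, and the number was taken to mark the experiment across groups.

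Keratins pair as type I and type II proteins to form the intermediate filaments of epithelial cells, and KRT8 with KRT18 and KRT19 is the usual set of luminal breast cells. Adherens junctions join cells through E-cadherin and the catenins, tight junctions seal the space between cells through claudins and occludin, and desmosomes anchor keratin filaments at the membrane through desmogleins, desmocollins, plakoglobin, plakophilins and desmoplakin. The transcription factors ELF3, GRHL2 and OVOL1 and the splicing factors ESRP1 and ESRP2 maintain this program, and the repressors of the SNAI and ZEB families shut it down when epithelial cells turn mesenchymal.

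SNAI and ZEB repressors recognise the E-box CAGGTG, so the windows of 250 bases before the annotated gene starts were searched for these letters on both strands. RefSeq promoter entries (GRCh38.p14) were matched for 17 of the 34 genes, with 29 windows, since a gene can have several starts and windows of 1 gene can overlap. The E-box letters were in 14 of the 29 windows (48.3%), beside 17.5% of all 35116 promoter windows. Both overlapping MUC1 windows hold the same E-box pair and were each counted. By gene, the letters were in 12 of the 17 genes. A gene with several windows has more chances to hold them, and there was no share over all genes to set beside this. The count by gene was therefore not read further. The windows of the start listed first for 4 of these genes are shown because their genes carry the estradiol and culture differences described further on, with each E-box in capitals. They run 5′ to 3′ on the strand of the gene. The CLDN3 window and the first-listed windows of CD24 and SPINT1, genes also with values below 0 for E2, held no E-box. A later window of CD24 and of SPINT1 held 1. ELF3 lies on the plus strand at chr1:202010337-202010586, MUC1 on the minus strand at chr1:155192916-155193165, DSG2 on the plus strand at chr18:31497927-31498176 and DSP on the plus strand at chr6:7541421-7541670.
ELF3: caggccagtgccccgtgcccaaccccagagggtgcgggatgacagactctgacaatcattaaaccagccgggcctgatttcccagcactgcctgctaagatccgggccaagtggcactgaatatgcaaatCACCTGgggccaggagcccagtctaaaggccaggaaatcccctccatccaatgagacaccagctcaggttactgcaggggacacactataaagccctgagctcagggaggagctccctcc
MUC1: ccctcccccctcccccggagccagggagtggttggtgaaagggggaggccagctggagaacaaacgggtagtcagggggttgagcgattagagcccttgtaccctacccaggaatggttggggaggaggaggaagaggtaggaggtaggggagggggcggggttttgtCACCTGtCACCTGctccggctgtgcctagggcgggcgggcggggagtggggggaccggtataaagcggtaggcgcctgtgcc
DSG2: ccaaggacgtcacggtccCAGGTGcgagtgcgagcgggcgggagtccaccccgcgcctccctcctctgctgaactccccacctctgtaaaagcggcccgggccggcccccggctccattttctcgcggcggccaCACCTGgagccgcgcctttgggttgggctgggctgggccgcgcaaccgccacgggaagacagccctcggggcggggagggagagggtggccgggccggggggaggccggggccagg
DSP: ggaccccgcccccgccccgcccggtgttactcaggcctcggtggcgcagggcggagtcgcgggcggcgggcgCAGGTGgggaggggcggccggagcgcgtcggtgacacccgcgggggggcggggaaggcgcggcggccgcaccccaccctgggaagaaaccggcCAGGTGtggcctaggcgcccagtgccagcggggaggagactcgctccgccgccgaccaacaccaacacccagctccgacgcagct
The E-box of ELF3 begins 120 bases before the start, and the adjacent pair of MUC1 begins 82 and 75 bases before it. DSG2 has its E-boxes at 232 and 116 bases and DSP at 178 and 85 bases before the start. None of the 29 windows held the grainyhead-like site AACCGGTT, which 0.117% of all windows held, or the palindromic consensus estrogen response element, which 0.0399% held. The AP-1 site TGACTCA was in the windows of CLDN4 and PERP and in 4.2% of all windows. No overlap among the 4 motifs was removed. These are letter matches, not measured binding.

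Nearly all of the epithelial genes read above a background mark in T47D, while the SNAI and ZEB repressors did not. As a guide to the level of genes that breast cells are not known to use, 341 olfactory receptor genes had mean log2 signals of 3.26 to 8.35, with a 95th percentile of 7.15. For 30 of the 31 epithelial genes even the lowest array lay above that percentile, and KRT15, a keratin of basal cells, was the exception with signals of 6.93 to 7.70. That mark is low, since it lies under the median signal of every array (7.25 to 7.37). Most probe sets on each array thus exceed it, and the share of all genes that do so was not counted. KRT15 and OVOL1 had even their highest array below 8.35, the highest olfactory receptor gene mean. Probe sets differ in affinity, so levels of different genes were not ranked. Among the luminal markers (ESR1, GATA3, FOXA1, XBP1, AGR2, TFF3, SPDEF and PRLR), 8 of 8 had every array above the percentile.

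The repressor genes ZEB1, ZEB2, SNAI1 and SNAI2 stayed below 7.15 on all 8 arrays, with highest values of 5.57, 6.25, 6.62 and 5.96. VIM, which encodes the mesenchymal filament protein vimentin, ran from 5.81 to 6.20 and the N-cadherin gene CDH2 from 5.80 to 6.03. Of 18 measured mesenchymal genes, 10 lay under the percentile on every array and 7 above it on every array, namely FN1, COL1A1, COL3A1, S100A4 and the transcription factor genes TWIST1 (7.82 to 8.24), TWIST2 (7.52 to 8.51) and FOXC2 (7.76 to 8.37). Basal and myoepithelial markers had 1 of 7 wholly above it, fibroblast markers 2 of 8, immune markers 0 of 7 and endothelial markers 1 of 6. The mean signal of each of these marker lists was widest in 17β-HSD1 siRNA with vehicle, for example 6.00 to 6.43 for the immune list, against 6.06 to 6.13 in control siRNA with E2.

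**Figure D1:**
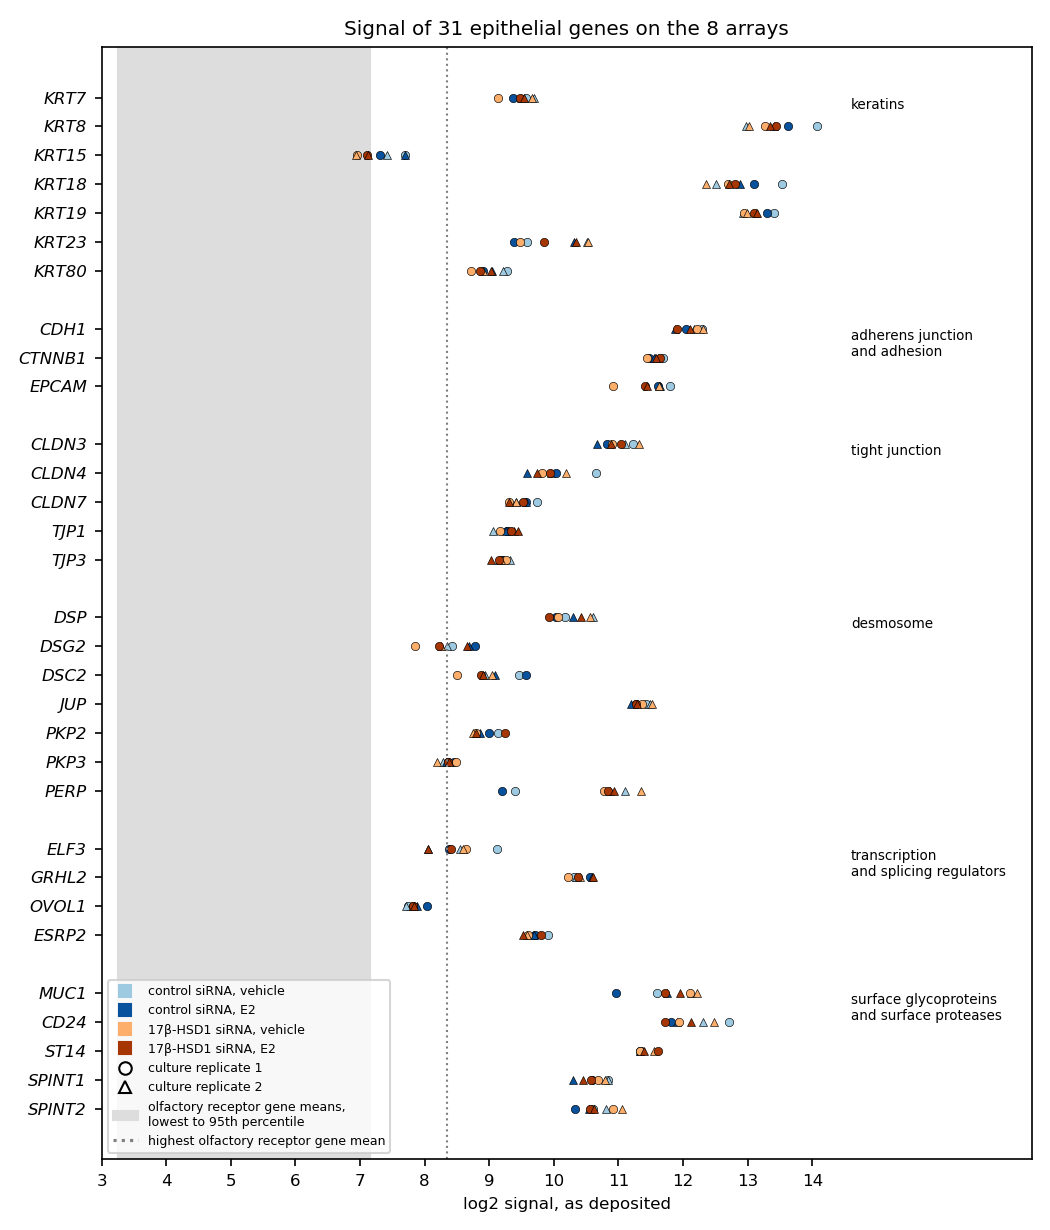
Deposited log2 signal (horizontal axis) of the 31 measured epithelial genes (rows, by role) on each of the 8 arrays. Colour gives the group, circles and triangles culture replicates 1 and 2, the grey band the olfactory receptor gene means from 3.26 to their 95th percentile of 7.15, and the dotted line their highest mean, 8.35. KRT15 alone reaches into the band, and PERP has 2 arrays far below the other 6.

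Array medians were 7.25 to 7.37. The array of replicate 1 in 17β-HSD1 siRNA and vehicle differed most from the rest, with a mean correlation of 0.973 where the others had 0.981 to 0.988. Estradiol action was visible in the estrogen target gene GREB1, which rose by 1.71 ± 0.12 (SE, 4 arrays against 4, limma adjusted p = 0.000249). The targeted HSD17B1 had signals of 9.35, 8.66, 9.12 and 8.56 with control siRNA and 8.41, 8.36, 8.32 and 8.37 with 17β-HSD1 siRNA. Its averaged change was -0.56 ± 0.16 and did not pass (limma adjusted p = 0.221).

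No epithelial gene passed the threshold in any of the 7 contrasts, by limma with p-values adjusted over all 21214 probe sets that had a symbol and called below 0.05. For E2 averaged over the siRNAs this was 0 of 31, where 1.64% of all genes were called. For 17β-HSD1 siRNA averaged over the media it was also 0 of 31, where 0.445% were called. At an unadjusted p below 0.05 there were 8 of 31 (25.8%) for E2, 1 higher and 7 lower, against 8.9% of all genes, 5.38% higher and 3.53% lower. The corresponding count for 17β-HSD1 siRNA was 7 of 31 (22.6%), 2 higher and 5 lower, against 9.17% of all genes, 3.55% higher and 5.63% lower. Among these, KRT80, PERP, EPCAM and MUC1 lay near the cut, with unadjusted limma p of 0.04955, 0.0493, 0.0484 and 0.0459. By its other probe set EPCAM had an unadjusted limma p of 0.407. For DSC2, DSG2, PERP, MUC1 and EPCAM the size of the difference was larger within replicate 1 than within replicate 2. With the replicate block, which takes the culture experiment as a term in the fit, ELF3 was called lower with E2, and it was the sole epithelial gene called in any contrast.

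The uncalled genes were measured with a median SE of 0.12 on the log2 scale in the averaged contrasts. The 95% interval of the change, not adjusted for the number of genes, lay within 1 log2 unit of 0 for 30 of 31 genes in either averaged contrast, PERP being the exception in both. It lay within 0.5 for 18 genes with E2 and 21 with 17β-HSD1 siRNA. The median change was -0.01 with E2 and -0.05 with 17β-HSD1 siRNA, beside -0.02 and 0.01 over all genes. In bulk RNA, fewer cells of a kind and less RNA per cell cannot be told apart.

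**Figure D2:**
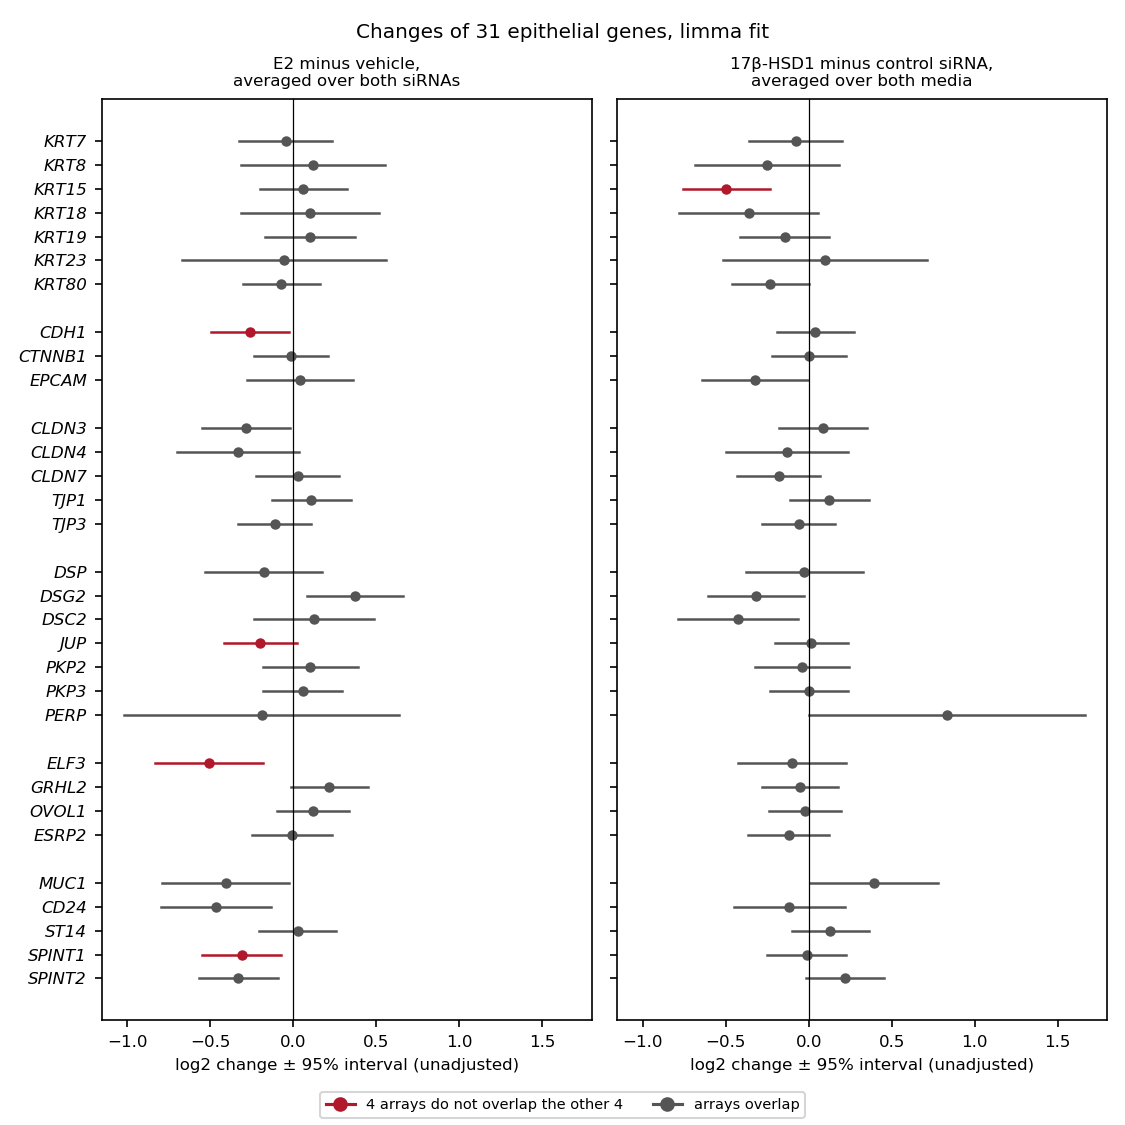
Log2 changes (points) with unadjusted 95% intervals (lines) of the 31 genes from the limma fit, for E2 (left) and 17β-HSD1 siRNA (right), each 4 arrays against 4. Red marks genes whose 4 treated arrays do not overlap the other 4: CDH1, JUP, ELF3 and SPINT1 with E2, and KRT15 with 17β-HSD1 siRNA.

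The differences nearest to the threshold with E2 were in the regulator ELF3 and in surface proteins, all lower. ELF3, an ETS-family transcription factor of epithelial cells, had signals of 9.12 and 8.55 in control siRNA with vehicle and 8.38 and 8.05 in control siRNA with E2. After 17β-HSD1 siRNA they were 8.65 and 8.60 in vehicle and 8.41 and 8.05 with E2. All 4 E2 arrays were below all 4 vehicle arrays. The change was -0.51 ± 0.15 (0.702-fold), with a limma adjusted p of 0.172 and of 0.0369 with the replicate block (-0.51 ± 0.11). Within culture replicates 1 and 2 it was -0.49 and -0.53.

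The other regulators were nearer to 0. GRHL2, a grainyhead-like activator of junction genes, stood at 0.22 ± 0.11, with 0.21 and 0.23 within replicates 1 and 2 and limma adjusted p of 0.62. The splicing regulator gene ESRP2 stood at -0.01 and OVOL1, a zinc finger repressor of mesenchymal genes, at 0.12. The group thus held 2 positive and 2 negative values, with none called.

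CD24, a surface glycoprotein, had signals of 12.71 and 12.30 in control siRNA with vehicle and 11.81 and 11.90 with E2. After 17β-HSD1 siRNA its signals were 11.93 and 12.47 in vehicle and 11.73 and 12.12 with E2, so the arrays overlapped. The change was -0.46 ± 0.15 (limma adjusted p = 0.254). SPINT1, an inhibitor of membrane-anchored serine proteases, read 10.83 and 10.84 in control siRNA with vehicle, 10.59 and 10.29 with E2, and after 17β-HSD1 siRNA 10.69 and 10.79 without and 10.58 and 10.45 with E2. Every E2 array was lower than every vehicle array (-0.31 ± 0.11, limma adjusted p = 0.306).

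SPINT2, a related inhibitor, had a change of -0.33 ± 0.11 (limma adjusted p = 0.252), with -0.31 and -0.35 within replicates 1 and 2. The mucin gene MUC1 stood at -0.41 ± 0.18 (limma adjusted p = 0.506), and at -0.21 without replicate 1 of control siRNA with E2. ST14, which encodes the protease matriptase that these inhibitors restrain, was near 0 at 0.03. The 5 surface genes thus held 4 with an unadjusted p below 0.05, all lower, beside 3.53% lower of all genes, and a median of -0.33.

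In adherens junctions, CDH1, which encodes E-cadherin, had signals of 12.29 and 12.18 in control siRNA with vehicle and 12.05 and 11.88 with E2. After 17β-HSD1 siRNA it read 12.22 and 12.31 in vehicle and 11.90 and 12.11 with E2. The E2 arrays lay below the vehicle arrays without overlap (-0.26 ± 0.11, 0.834-fold, limma adjusted p = 0.455). CTNNB1, the gene of its partner β-catenin, stood at -0.01 and the adhesion molecule gene EPCAM at 0.04.

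Tight junction genes had a median E2 change of -0.11. CLDN3 stood at -0.29 ± 0.12 and CLDN4 at -0.33 ± 0.17, with limma adjusted p of 0.487 and 0.655. Without replicate 2 of 17β-HSD1 siRNA with vehicle CLDN3 stood at -0.18. CLDN4 stood at -0.16 without replicate 1 of control siRNA with vehicle and at -0.50 without replicate 2 of it. CLDN4 had its highest array, 10.64, in control siRNA with vehicle replicate 1 and its lowest, 9.58, in control siRNA with E2 replicate 2. CLDN7 stood at 0.03, and the scaffold genes TJP1 and TJP3 at 0.11 and -0.11.

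Desmosome genes did not share a direction with E2, with 4 positive and 3 negative values and a median of 0.05. DSG2, a desmosomal cadherin gene, had the highest value of the 31 genes at 0.37 ± 0.13 (limma adjusted p = 0.326). Its signals were 8.42 and 8.35 in control siRNA with vehicle, 8.78 and 8.69 with E2, and after 17β-HSD1 siRNA 7.85 and 8.25 without and 8.22 and 8.65 with E2. The vehicle and E2 arrays overlapped, and the E2 change was 0.37 within either replicate. JUP, which encodes plakoglobin, was lower on every E2 array by a small amount (-0.20 ± 0.10, limma adjusted p = 0.651), and its 8 signals spanned only 11.19 to 11.52.

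Keratin genes had small E2 changes of either sign. They ran from -0.07 for KRT80 to 0.12 for KRT8, and none of the 7 had an unadjusted p below 0.05. The KRT8 change was -0.14 within replicate 1 and 0.38 within replicate 2, so its sign differed between them. KRT19, with the smallest p of the keratins, stood at 0.10 ± 0.12 (limma adjusted p = 0.972). Over all 31 genes, the arrays of E2 and vehicle did not overlap for 4 genes in the lower direction (beside 2.08% of all genes) and for 0 in the higher direction (2.99% of all genes).

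**Figure D3:**
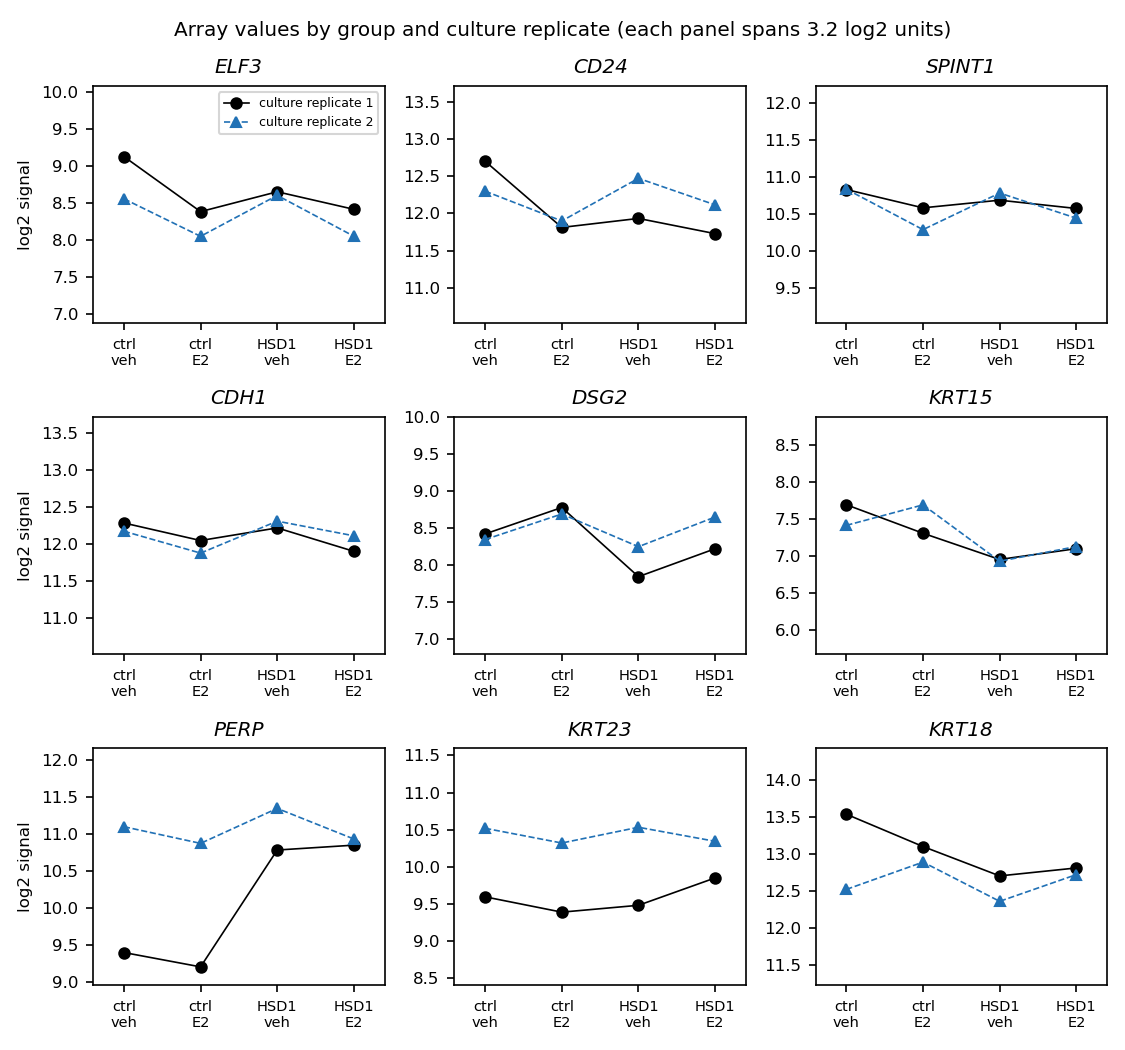
Log2 signal (vertical axis, 3.2 units in every panel) of 9 epithelial genes in the 4 groups, with culture replicate 1 as black circles and replicate 2 as blue triangles. The lines join arrays of 1 replicate number and have no time order. ELF3, SPINT1 and CDH1 are lower in E2 than in vehicle in both replicates, KRT15 is lower with 17β-HSD1 siRNA in both, PERP is low in the 2 control siRNA arrays of replicate 1, and KRT23 is lower in replicate 1 throughout.

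With 17β-HSD1 siRNA the keratins had 6 of 7 values below 0, beside 8418 of all 18417 genes, with a median of -0.23 and none called. Within replicate 2 the values were 0.01, -0.01, 0.04 and 0.02 for KRT7, KRT8, KRT19 and KRT23. They were -0.52, -0.16 and -0.16 there for KRT15, KRT18 and KRT80. KRT15 had signals of 7.70 and 7.42 in control siRNA with vehicle and 7.31 and 7.69 with E2. After 17β-HSD1 siRNA these were 6.96 and 6.93 in vehicle and 7.10 and 7.13 with E2. All 4 knockdown arrays lay below all 4 control arrays, and also below 7.15, the 95th percentile of the olfactory receptor genes, so the knockdown level was not measured above that mark and the size of the difference was not read as a fold. The fitted difference was -0.50 ± 0.12 (limma adjusted p = 0.119, or 0.0787 with the replicate block), with -0.47 and -0.52 within replicates 1 and 2. It was the sole gene of the 31 without overlap for this contrast, beside 2.17% of all genes in the lower and 2.12% in the higher direction.

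KRT80, a keratin of differentiating epithelia, stood at -0.23 ± 0.11 (limma adjusted p = 0.527). KRT8 and KRT18, the partner keratins of simple epithelia, stood at -0.25 ± 0.20 and -0.36 ± 0.19, with limma adjusted p of 0.846 and 0.62. Both were highest in control siRNA with vehicle replicate 1, at 14.07 and 13.53, against 12.97 and 12.52 in replicate 2 of that group. Without that replicate 1 array the KRT8 and KRT18 changes were 0.02 and -0.11, and without the replicate 2 array -0.53 and -0.62. A different KRT18 probe set, annotated with the same accessions, gave -0.14 ± 0.16, so the KRT18 value depends on the probe set. KRT19 stood at -0.14 ± 0.12.

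Junction genes had values of either sign after 17β-HSD1 siRNA, and none was called. The tight junction genes ran from -0.18 ± 0.11 for CLDN7 to 0.12 for TJP1. CDH1 and CTNNB1 stood at 0.04 and 0.00, and EPCAM at -0.32 ± 0.15 (limma adjusted p = 0.525), or -0.11 ± 0.13 by a different probe set for the same gene. The lowest EPCAM signal, 10.92, was that of 17β-HSD1 siRNA with vehicle replicate 1, and the other 7 arrays lay between 11.41 and 11.79. The change was -0.14 without that array and -0.50 without replicate 2 of the same group.

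The desmosomal cadherin genes DSC2 and DSG2 stood at -0.43 ± 0.16 and -0.32 ± 0.13, with limma adjusted p of 0.408 and 0.462. DSC2 signals were 9.46 and 8.94 in control siRNA with vehicle, 9.57 and 9.08 with E2, and after 17β-HSD1 siRNA 8.50 and 9.04 without and 8.88 and 8.91 with E2. Pairing by array number held only in part, with a correlation of -0.20 between the 2 siRNAs in vehicle. By that number, the DSC2 difference lay in replicate 1, with -0.82 within it and -0.03 within replicate 2. For DSG2 the corresponding values were -0.57 and -0.07. Neither JUP (0.02) nor the plakophilin genes PKP2 (-0.04) and PKP3 (0.00) followed them.

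PERP, a membrane protein gene of desmosomes that p53 activates, had the highest value of the 31 genes, 0.83 ± 0.38 (1.78-fold, limma adjusted p = 0.527). Its signals with control siRNA were 9.40 and 11.09 in vehicle and 9.20 and 10.87 with E2. After 17β-HSD1 siRNA they were 10.78 and 11.34 in vehicle and 10.85 and 10.93 with E2. The 2 low arrays were the control siRNA arrays of replicate 1, so the change was 1.51 within replicate 1 and 0.15 within replicate 2. It was 0.41 without the vehicle array of that pair and 0.42 without its E2 array, and 1.26 and 1.25 without the corresponding control siRNA arrays of replicate 2. Whether those cultures differed in another way was not tested.

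Regulators and surface genes were mostly near 0 after 17β-HSD1 siRNA. The 4 regulators had values from -0.12 to -0.02, with the smallest p for ESRP2 (-0.12 ± 0.11). MUC1 had signals of 11.59 and 12.12 in control siRNA with vehicle, 10.96 and 11.75 with E2, and after 17β-HSD1 siRNA 12.10 and 12.21 without and 11.73 and 11.95 with E2. Its change was 0.39 ± 0.18 (limma adjusted p = 0.511), with 0.64 and 0.15 within replicates 1 and 2. Leaving out replicate 1 of control siRNA with E2 gave 0.20, replicate 2 of that group 0.59, and replicate 1 of control siRNA with vehicle 0.26. SPINT2 stood at 0.22 ± 0.11, and CD24, ST14 and SPINT1 at -0.12, 0.13 and -0.01.

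The spread between arrays of a group was also set beside the treatment changes. The gap between the 2 arrays of a group, averaged over the 4 groups, had a median of 0.19 over the 31 genes and over all genes alike. It exceeded the E2 change for 20 of 31 genes (64.5%, beside 80.4% of all genes) and the 17β-HSD1 siRNA change for 23 (74.2%, beside 79.5%), so these shares were not above those of all genes. PERP and KRT23 had gaps of 1.00 and 0.85, larger than those of 99.9% and 99.8% of all genes.

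KRT23, a type I keratin, read 9.59, 9.38, 9.48 and 9.85 on the replicate 1 arrays and 10.52, 10.32, 10.53 and 10.34 on the replicate 2 arrays, in the order control siRNA without and with E2, then 17β-HSD1 siRNA without and with E2. Every replicate 2 array was above every replicate 1 array, whatever the siRNA or medium. DSP, which encodes desmoplakin, was likewise higher in replicate 2 of each group, by 0.43, 0.26, 0.49 and 0.49 in the same order. In all, 7 of the 31 genes were higher in replicate 2 in all 4 groups (22.6%, beside 9.62% of all genes) and 5 were higher in replicate 1 (16.1%, beside 10.1%).

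The sign of a change was also compared between the culture experiments. The E2 change had the same sign within replicates 1 and 2 for 23 of 31 genes (74.2%, beside 64.9% of all genes), and the 17β-HSD1 siRNA change for 15 (48.4%, beside 45.1%). The size of the siRNA change had a median of 0.17 within replicate 1 and 0.11 within replicate 2, and over all genes 0.18 and 0.10. Replicate 1 includes the array that differed most from the rest.

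**Figure D4:**
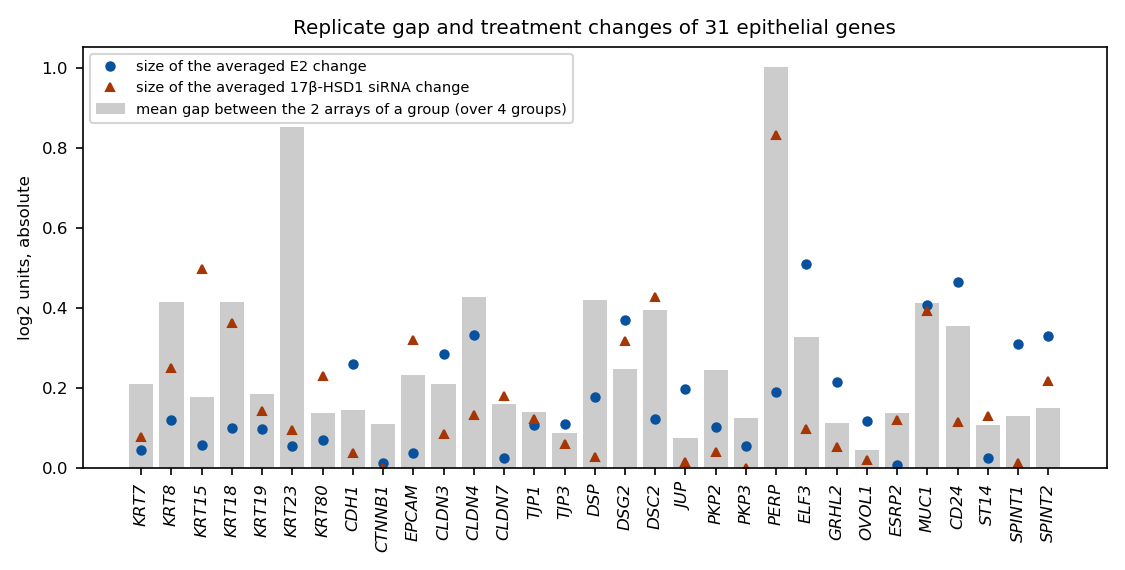
Mean absolute gap between the 2 arrays of a group over the 4 groups (grey bars), with the absolute averaged E2 change (blue circles) and 17β-HSD1 siRNA change (brown triangles), in log2 units, for each of the 31 genes. The bars of PERP (1.00) and KRT23 (0.85) stand above both of their treatment changes. Among the genes with a change above their bar are ELF3, CD24, SPINT1 and SPINT2 for E2 and KRT15 for the siRNA.

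Within a single siRNA or medium, 2 arrays stood against 2 and limma called 0 of the 31 genes in each case. With control siRNA, E2 gave an unadjusted p below 0.05 for 4 genes (CLDN3, ELF3, CD24 and SPINT1, all lower), where 6.09% of all genes had one, 2.82% lower, and 0.0869% were called. After 17β-HSD1 siRNA it did so for SPINT2 alone, where 4.43% had one and 0.282% were called. In vehicle, 17β-HSD1 siRNA did so for KRT15 and KRT80 (5.22% of all genes, 0% called), and in E2 for KRT15 (4.53% of all genes, 0% called).

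The interaction, the difference between the E2 changes measured under either siRNA, called 0 of 31 genes by limma, with 0 at an unadjusted p below 0.05, beside 0.592% of all genes. The values were positive for 25 of 31 genes, beside 9264 of all 18417 genes. Their median was 0.16, beside 0.00 over all genes. Without 17β-HSD1 siRNA with vehicle replicate 1, the array that differed most, 17 of 31 were positive with a median of 0.05. Without control siRNA with vehicle replicate 1 it was 18 of 31 with a median of 0.04. When each array was left out in turn, the median ran from 0.04 to 0.24.

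Other genes of the same structures were read from companion lists, and none was called in either averaged contrast. For E2 these were 0 of 10 other keratins (median 0.02), 0 of 11 adherens junction genes (-0.14), 0 of 23 tight junction and polarity genes (-0.07), 0 of 11 desmosome and plakin genes (-0.06), 0 of 11 epithelial regulators (-0.08) and 0 of 18 mesenchymal genes (-0.04). The count at an unadjusted p below 0.05 was 0, 4, 1, 1, 2 and 1 in that order, beside 8.9% of all genes. ELF5, an ETS factor of mammary luminal progenitors, was nearest to the threshold. Its signals were 11.82 and 11.71 in control siRNA with vehicle, 11.13 and 11.09 with E2, and after 17β-HSD1 siRNA 11.36 and 11.76 without and 11.23 and 11.16 with E2. All E2 arrays were below all vehicle arrays (-0.51 ± 0.11, limma adjusted p = 0.0547).

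DST, which encodes a plakin linker of keratin to the membrane, stood at -0.40 ± 0.10 with E2, the nectin gene NECTIN4 at -0.38 ± 0.12 and the junction adaptor gene PLEKHA7 at -0.34 ± 0.10, with limma adjusted p of 0.104, 0.228 and 0.186. For 17β-HSD1 siRNA the medians of the 6 lists, in the same order, were 0.05, 0.06, 0.08, 0.06, -0.06 and 0.01, and the unadjusted counts 0, 1, 3, 1, 3 and 0, beside 9.17% of all genes. DST was the nearest of them to the threshold after the siRNA, at 0.36 ± 0.10 (limma adjusted p = 0.204). The nectin gene NECTIN2 stood at 0.28 ± 0.10 (limma adjusted p = 0.352). The claudin gene CLDN1 stood at 0.58 ± 0.22 and the tight junction adaptor gene CGN at 0.35 ± 0.11, with limma adjusted p of 0.396 and 0.278. Of the 8 luminal markers, 1 was higher and 3 were lower at an unadjusted p below 0.05 after the siRNA, and none was called. The prolactin receptor gene PRLR was lower on all 4 knockdown arrays (-0.36 ± 0.10, limma adjusted p = 0.206) and the transcription factor gene FOXA1 higher on all 4 (0.35 ± 0.12, limma adjusted p = 0.307). The estrogen receptor gene ESR1, also on the list of regulators, stood at -0.32 ± 0.13 (limma adjusted p = 0.463).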

How the data were processed

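Per the file, 33297 probe sets on 8 arrays were deposited by the authors as log2 signals, a scale read from the values (2.42 to 15.2). Background correction, summarisation, normalization and genome build were not given in the sources read. Gene names came from the array's platform annotation, with symbols updated by gene identifier from the RefSeq table of GRCh38.p14: 19460 had 1 symbol, 1754 several and 12083 none.

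Values were tested as deposited in R 4.3.3 by limma 3.58.1 (lmFit on all 8 arrays, a coefficient for every group, eBayes), giving 4 residual degrees of freedom. P-values were Benjamini-Hochberg adjusted over the 21214 probe sets with a symbol and called below 0.05. Changes are log2 differences ± SE from this fit. The procedure was tested on simulated data. The number of arrays limits the precision.

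The members and lists were chosen with earlier results of these data known. Any member could be named, and always the one with the smallest p of each role in the averaged contrasts. From each companion or marker list at most 2 genes per averaged contrast could be named, those with the smallest p in that list, and genes given by level alone were picked after seeing their values.

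Pairing rests on the 2 culture experiments that the protocol describes and held only in part. For arrays sharing a number, deviations from group means had correlations of 0.31 to 0.44 in 4 pairs of groups, while control siRNA in vehicle had 0.01 with 17β-HSD1 siRNA in E2 and -0.20 with 17β-HSD1 siRNA in vehicle. Alternatives left out dim probe sets or each array in turn, used all probe sets, 1 per gene or their mean, normalized again by quantiles, and changed the model (trended robust spread, replicate block, no interaction, the compared arrays only).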

Additional observations from a re-analysis of the deposited data

Results flagged for a closer look

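OVOL1 was the sole epithelial gene whose 17β-HSD1 siRNA differences ran opposite ways in the 2 media without overlap of the arrays, as they did for 1.54% of all genes. In vehicle its signals were 7.73 and 7.72 with control siRNA and 7.82 and 7.81 with 17β-HSD1 siRNA, a difference of 0.089. With E2 they were 8.03 and 7.88 against 7.81 and 7.83, a difference of -0.13. All of these signals lay below 8.35, the highest olfactory receptor gene mean. The interaction was -0.22 ± 0.20 and did not pass (limma adjusted p = 1.00).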

How the results depend on the processing

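With 2 arrays per group, the SE of an averaged change ran from 0.10 to 0.38, and KRT15 lay at the upper edge of the olfactory receptor signals. No setting but the replicate block called an epithelial gene in any of the 7 contrasts. With the block, E2 averaged over the siRNAs called 1 gene, ELF3 (-0.51 ± 0.11, adjusted p = 0.0369), and the block called 0 in the other 6 contrasts. Over the ELF3 alternatives the adjusted p ran from 0.0369 to 0.663 and the change from -0.65 to -0.37. Crossing the 2 numbers for control siRNA in vehicle within the block, an alternative chosen after seeing the data, called 0. Leaving out each array called 0 throughout, and the unadjusted count for E2 ran from 4 to 10 over all alternatives and for 17β-HSD1 siRNA from 1 to 9. The median E2 change of the 31 genes ran from -0.09 to 0.02 when each array was left out, and the median 17β-HSD1 siRNA change from -0.10 to -0.02. The KRT19 change with E2 ran from -0.019 to 0.22 when each array was left out and was negative (-0.019) without replicate 2 of control siRNA in vehicle. The KRT8 change with 17β-HSD1 siRNA ran from -0.53 to 0.024 and was positive (0.024) without replicate 1 of control siRNA in vehicle. The cause was not tested. This check covered single-gene changes with an unadjusted p below 0.05, the smallest p of each role and a few others. The other changes it covered kept their sign under the alternatives run, but some moved by over 1.5 times when 1 array was left out. Changes outside it, such as that of KRT8 with E2 (-0.14 and 0.38 within replicates 1 and 2), need not keep their sign. Besides those given in the report, the 17β-HSD1 siRNA change ran from -0.26 to -0.10 for CLDN7, -0.42 to -0.21 for DSG2, -0.19 to -0.05 for ESRP2 and -0.26 to -0.03 for KRT19.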
